A study of Mus musculus with 8 samples.

Results

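The clade A serpins described here are the genes for plasma protease inhibitors and their relatives that the liver secretes, chosen by gene symbol. The list held 10 names: Serpina1a, Serpina1b, Serpina1c, Serpina1d, Serpina1e, Serpina3k, Serpina3m, Serpina3n, Serpina6 and Serpina10. Of these, 8 had a row among the 19055 genes of the expression table, and Serpina1d and Serpina3k were not analysed here beyond their reference sequences. Expression was measured in 8 mouse liver samples collected 48 h after partial hepatectomy, with surgery at 8 to 9 weeks of age. The 3 control libraries carry the genotype URI(+/+)Hep and come from wild-type littermates. The 5 others carry URI(+/D)Hep, a loss-of-function model made with a serum albumin-creERT2 line that acts in hepatocytes. As written, the label +/D stands for 1 intact and 1 deleted allele in hepatocytes, while the other cells of the liver keep the gene undeleted. All mice received tamoxifen for 1 week.

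Serpins trap a protease with an exposed loop, the reactive centre loop, which the protease cleaves before the serpin folds it into its own body and holds the enzyme. Hepatocytes secrete most of the serpins of plasma. Alpha-1 antitrypsin, the human relative of the Serpina1 proteins, protects tissue from neutrophil elastase, and relatives of alpha-1 antichymotrypsin such as Serpina3n are acute phase proteins. Serpina6 and Serpina10 stand apart in function. Serpina6 is corticosteroid-binding globulin, a hormone carrier that inhibits no protease, and Serpina10 is the inhibitor that blocks coagulation factor X in its active form with protein Z as cofactor. In mice, the Serpina1 and Serpina3 genes were multiplied, and the copies differ most in the loop that selects the protease.

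The coding sequences are shown first because their likeness limits how well a read can be given to 1 copy. Over the 5 Serpina1 coding sequences of the GENCODE M21 annotation (build GRCm38), the 10 pairs shared between 96.3% and 98.5% of aligned bases. The 60 bases in which the copies differed most lay 82 bases before the coding end, in the stretch that encodes the reactive centre loop, and mean identity there was 84.7%. The copies are printed 5′ to 3′ below, with capitals at the 18 positions that differ among the 5.
Serpina1a: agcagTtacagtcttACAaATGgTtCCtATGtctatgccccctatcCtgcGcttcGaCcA
Serpina1b: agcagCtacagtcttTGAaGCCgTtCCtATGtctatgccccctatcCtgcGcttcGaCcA
Serpina1c: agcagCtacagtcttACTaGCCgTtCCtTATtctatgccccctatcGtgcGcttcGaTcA
Serpina1d: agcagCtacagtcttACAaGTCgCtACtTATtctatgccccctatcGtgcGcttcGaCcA
Serpina1e: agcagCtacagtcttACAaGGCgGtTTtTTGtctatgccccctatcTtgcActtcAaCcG
Serpina1a and Serpina1b differed at 6 of these 60 bases, Serpina1c and Serpina1d at 5, and Serpina1e differed from each of the others at 10 to 12.

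The Serpina3 copies were farther apart. Their 3 pairs shared 82.7% to 91.6% of coding bases, and 69.4% in the most divergent 60 bases, which also fall in the loop. Capitals again mark the positions that differ, 26 in all.
Serpina3k: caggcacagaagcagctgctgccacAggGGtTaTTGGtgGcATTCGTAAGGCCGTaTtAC
Serpina3m: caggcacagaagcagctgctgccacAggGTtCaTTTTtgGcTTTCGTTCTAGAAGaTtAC
Serpina3n: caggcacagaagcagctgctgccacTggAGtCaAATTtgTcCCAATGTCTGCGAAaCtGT

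The libraries were primed at the poly(A) tail, so the last bases of a transcript decide to which copy a read can be assigned. For the longest coding transcript of each gene, the last 500 bases were cut into windows of 50 bases and looked up in the transcripts of all other genes. Of 451 windows, 55.4% recurred elsewhere for Serpina1a, 38.6% for Serpina1c, 29.5% for Serpina1b and 16.4% for Serpina1e. The genes sharing them were the other Serpina1 copies and Gm8893. For Serpina3k, Serpina3m, Serpina3n, Serpina6 and Serpina10, 0 windows recurred. With windows of 100 bases the share was 17.5% for Serpina1a, 9.73% for Serpina1c, 1.25% for Serpina1b and 0% for Serpina1e. The values of single Serpina1 genes are therefore uncertain, and the sources used here do not say how reads that match several copies were counted. Their sum is given beside them.

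The Serpina1 genes also begin alike. Start regions from RefSeq (build GRCm38.p6), 250 bases before to 50 after the start, were matched for 6 of the 10 names, the Serpina1 genes and Serpina3n. The 10 pairs of Serpina1 start regions shared 91.7% to 98.4% of aligned bases. The run GTTAAT, which the Serpina1 starts share, occurred in all 5 and in 7.1% of 32851 start regions on either strand. The longer run GTTAATATTCAC, those letters with the 6 bases that follow them in Serpina1b, occurred in the same 5 and in no other start region, 0.0152% of all. TTGCNNAA, the letters of a C/EBP motif, occurred in Serpina1a, Serpina1b, Serpina1d and Serpina1e and in 10.8% of all regions. Counted from the annotated start, it lay at -161 in Serpina1b, -149 in Serpina1d and -211 in Serpina1e. In Serpina1a it lay after the start, at 25, and so is another site. The STAT motif TTCNNNGAA occurred in 0 of the 6 and in 8.3% of all. Such matches describe letters only. The 60 bases around GTTAAT (in capitals, gene strand, 5′ to 3′) are shown for 3 genes whose values are compared below, at chr12:103738180-103738239 for Serpina1b, chr12:103956940-103956999 for Serpina1e and chr12:103904942-103905001 for Serpina1c, all on the minus strand.
Serpina1b: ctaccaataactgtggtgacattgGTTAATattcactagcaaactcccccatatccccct
Serpina1e: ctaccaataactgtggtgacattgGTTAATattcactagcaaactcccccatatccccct
Serpina1c: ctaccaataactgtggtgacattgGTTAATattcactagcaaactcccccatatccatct
Serpina1b and Serpina1e differed at 0 of these 60 bases, and each differed from Serpina1c at 2. GTTAAT lay at -26 from the annotated start in Serpina1b and -27 in Serpina1c, but at -78 in Serpina1e.

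Depth ranged from 3838674 to 4800694 recovered reads per library, and the 8 serpins took 0.372% to 0.538% of them. Values are normalized reads, in which a size factor scales the counts of every library. Uri1 itself lay between 310 and 468 in the controls (384 ± 79.3, SD, n = 3) and from 328 to 437 in URI(+/D)Hep livers (384 ± 42.7, SD, n = 5), so the counted reads do not show the deletion. A tag outside the deleted part would not show it, and the groups are named by their labels. Cell cycle RNA varied within both groups. The summed value of 12 cell cycle genes was 455 in control 1 and 604 in URI(+/D)Hep 5, against 2521 to 5332 in the other 6 libraries. Xist was at 9.59 and 2.95 in controls 1 and 2 and between 1217 and 2357 in the other 6, and 4 Y-linked genes together reached 3.54 in URI(+/D)Hep 1 and 569 to 1558 elsewhere. Sex makeup thus differed between libraries and between groups, and the labels give no sex: Xist was near 0 only in 2 of the 3 controls, Y-linked RNA only in URI(+/D)Hep 1, and control 3 and URI(+/D)Hep 2 to 5 held both. Every difference between the groups below is also one between libraries of unlike sex makeup, and its part in them was not tested beyond a fit with the Y-linked share. The samples are whole liver, though the labels name epithelial cells, and markers of endothelial, stellate and Kupffer cells were present in every library (Stab2 672 to 1041, Dcn 658 to 1084, Clec4f 102 to 384). In whole tissue, fewer cells of a type and less RNA per cell cannot be told apart. Nothing in the labels says that each library is a single, separate animal, so p-values measure the spread between these samples.

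No serpin among the 8 passed the test for a difference between the groups. Each had an adjusted p of at least 0.328 (limma on log2(value + 1), Benjamini-Hochberg adjustment over 13704 tested genes), and all 8 had passed the filter on low values. Of all genes tested, limma called 0% higher and 0.0146% lower at an adjusted p under 0.05. At an unadjusted p under 0.05, limma counted 0 of the 8 serpins, against 17.7% of all genes (8.35% higher and 9.33% lower). The ranges of the 2 groups overlapped for all 8, against 13.4% of all genes with ranges apart. The log2 fold change, URI(+/D)Hep minus control, was negative for 6 of the 8 and for 50.2% of all genes, with a median of -0.12 against -0.0019. On recovered reads, edgeR called 0 of the 8 (0.0219% of all genes were called lower and 0% higher), and 2, Serpina1b and Serpina3m, had an unadjusted p under 0.05, as did 17.7% of all genes. DESeq2 called 0 of the 8 (4.97% of the genes it adjusted were called, 2.94% lower and 2.03% higher) and had the same pair under an unadjusted p of 0.05, as 17.1% of all genes were.

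**Figure D1:**
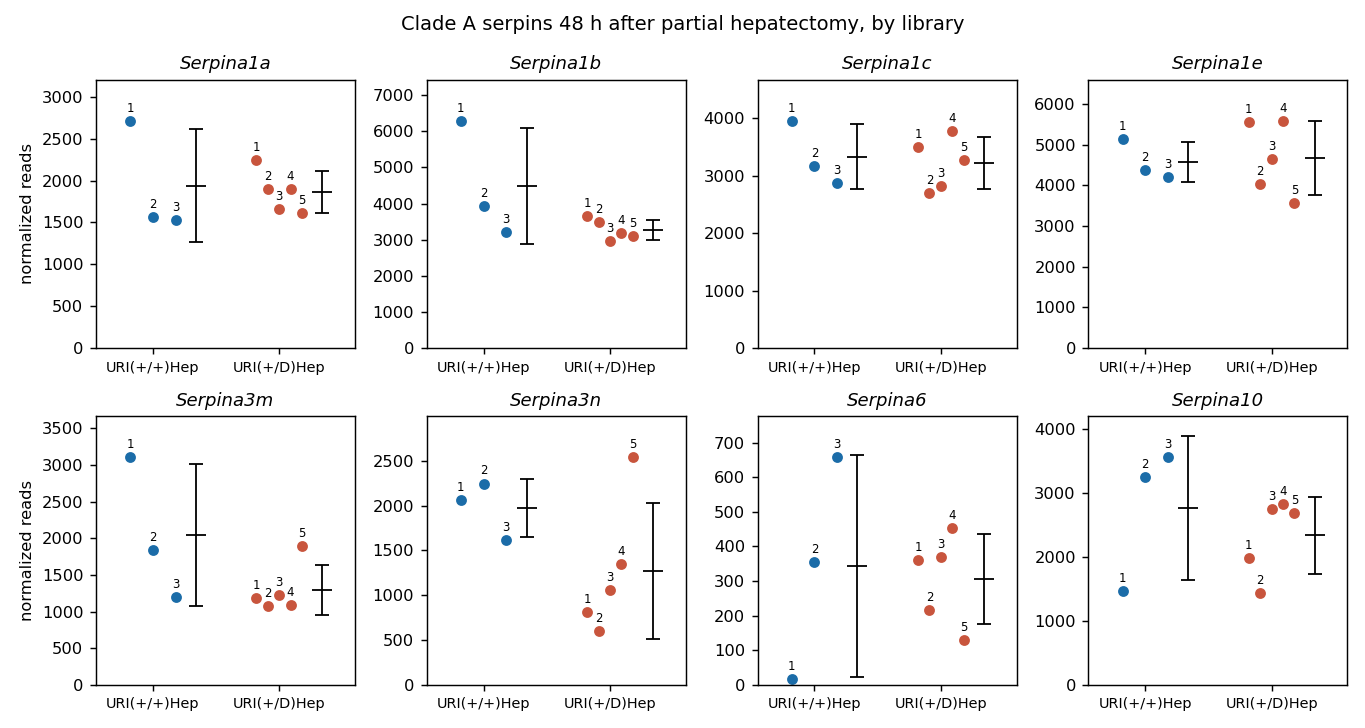
Normalized reads (vertical axis, starting at 0) of 8 serpins in 3 URI(+/+)Hep libraries (blue) and 5 URI(+/D)Hep libraries (red). Points are single libraries with their replicate number, and the bar beside them is the mean with its SD. The ranges of the groups overlap in every panel, and control 1 is the highest library for Serpina1a, Serpina1b, Serpina1c and Serpina3m and the lowest for Serpina6.

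**Figure D2:**
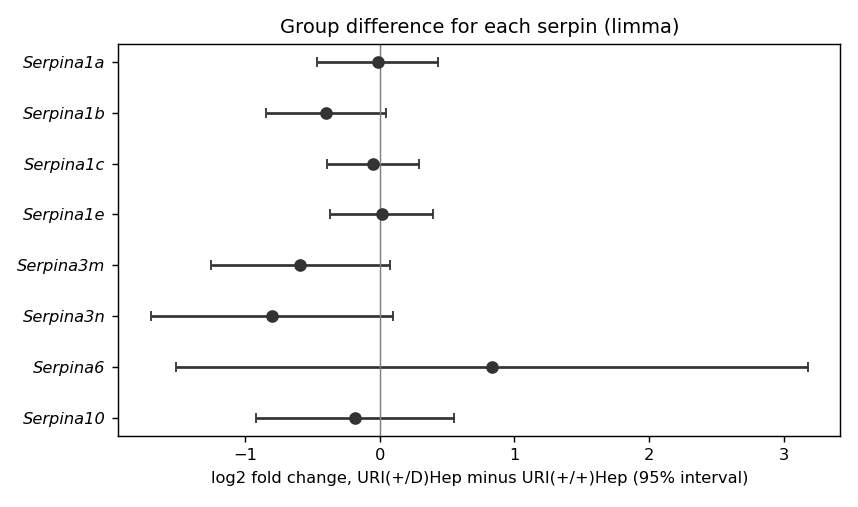
Log2 fold change of each serpin, URI(+/D)Hep minus URI(+/+)Hep, on the log2(value + 1) scale from limma. Points are estimates and bars their 95% intervals. Every interval includes 0, and that of Serpina6 runs from -1.51 to 3.18.

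The Serpina1 genes, which encode the alpha-1 antitrypsin paralogues, were read in quantity in every library. Serpina1b had 6296, 3929 and 3226 normalized reads in controls 1, 2 and 3, against 3654, 3481, 2977, 3185 and 3108 in URI(+/D)Hep 1 to 5. Control 1 was far above the others, and URI(+/D)Hep 1 and 2 lay between controls 2 and 3. The means were 4484 ± 1609 (SD, n = 3) and 3281 ± 279 (SD, n = 5), with a log2 fold change of -0.40 (adjusted p = 0.330 by limma, SE 0.20). Without control 1 it was -0.12.

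Serpina1a stood at 2715, 1568 and 1533 in the controls and at 2242, 1902, 1659.5, 1894 and 1611 in URI(+/D)Hep livers. Again control 1 was highest, while all 5 URI(+/D)Hep livers lay above controls 2 and 3. The log2 fold change was -0.02 (adjusted p = 0.974 by limma, SE 0.20), and without control 1 it was 0.25. Serpina1c stood at 3955, 3171 and 2869 in the controls and at 3489.7, 2704, 2824, 3781 and 3278 in the others, with 2 of the 5 below the lowest control. Its log2 fold change was -0.05 (95% interval -0.39 to 0.29, SE 0.15), that is, 0.763- to 1.22-fold of the control. Serpina1e stood at 5145, 4387 and 4219 in the controls and at 5555, 4045, 4648, 5594 and 3560.4 in URI(+/D)Hep 1 to 5. Of these 5, 2 lay above every control and 2 below every control. The log2 fold change was 0.01 (95% interval -0.37 to 0.40, SE 0.17).

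Summed over the 4 measured Serpina1 genes, which avoids the assignment of reads among these 4, the values were 18111, 13053 and 11847 in the controls. In URI(+/D)Hep 1 to 5 they were 14941, 12131, 12109, 14454 and 11558. Control 1 was the highest of the 8 libraries and URI(+/D)Hep 5 the lowest. The means were 14337 ± 3324 (n = 3) and 13038 ± 1541 (n = 5), a log2 ratio of -0.12 with a two-sided exact permutation p of 0.518 over 56 splits, which allow a p as small as 0.0179. Without control 1 the log2 ratio was 0.06. The sum of all 8 serpins was 24763, 20745 and 18884 in the controls and 19291, 15460.1, 17515, 20171 and 18805 in the others, a log2 ratio of -0.23 (two-sided exact permutation p = 0.107). Without control 1 this ratio was -0.12.

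The makeup of the family also varied. Serpina1b took 34.8%, 30.1% and 27.2% of the summed Serpina1 reads in controls 1 to 3 and 24.5%, 28.7%, 24.6%, 22.03% and 26.9% in URI(+/D)Hep 1 to 5. Only URI(+/D)Hep 2 exceeded the lowest control in this share. Serpina1e took 28.4%, 33.6% and 35.6% in the controls and 37.2%, 33.3%, 38.4%, 38.7% and 30.8% in the others, with 3 of the 5 above every control. Serpina1a took 12.01% to 14.99% in controls and 13.1% to 15.7% in the others, and Serpina1c 21.8% to 24.3% and 22.3% to 28.4%. Each share rests on 11043 to 16903 recovered reads of the family in a library, which gives Wilson 95% intervals of at most 0.893 percentage points to either side. These intervals cover counting error only. The shares were not tested, and shared reads between copies bear on them directly.

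**Figure D3:**
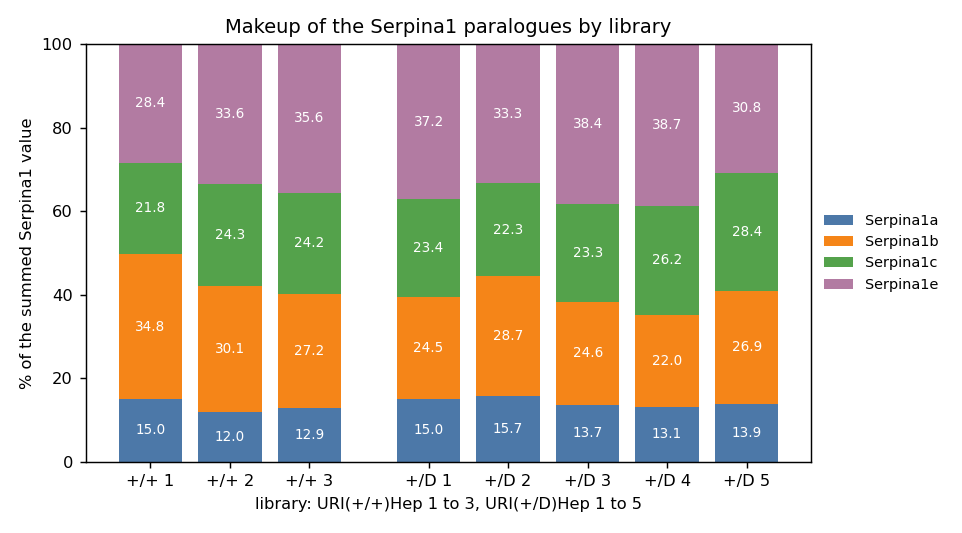
Share of each Serpina1 paralogue in the summed Serpina1 value (vertical axis, %) in 3 URI(+/+)Hep and 5 URI(+/D)Hep libraries; numbers in the bars are percentages. Serpina1b runs from 22.03% in URI(+/D)Hep 4 to 34.8% in control 1.

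The Serpina3 genes encode relatives of alpha-1 antichymotrypsin. Serpina3n, an acute phase inhibitor of serine proteases, stood at 2059, 2247 and 1619 in controls 1 to 3. In URI(+/D)Hep 1 to 5 it stood at 813, 602, 1061, 1353 and 2539. The first 4 of these were below every control, and URI(+/D)Hep 5 was above every control. The means were 1975 ± 322 (n = 3) and 1274 ± 761 (n = 5), with a log2 fold change of -0.80 (adjusted p = 0.328 by limma, 95% interval -1.70 to 0.10, SE 0.40). Without URI(+/D)Hep 5 the log2 fold change was -1.09 (limma adjusted p = 0.161). On the recovered reads of those 7 libraries DESeq2 called Serpina3n lower (adjusted p = 0.0162, log2 fold change -1.04). It called 2.2% of the genes it adjusted lower, and edgeR did not call Serpina3n (adjusted p = 0.165). URI(+/D)Hep 5 was left out after its values were seen, and it is the library that runs against the difference. A smaller p follows from that choice, so the DESeq2 call is no evidence of a difference. The gap from URI(+/D)Hep 5 to the nearest library was 0.612 of its group's range, below Dixon's critical value of 0.71 for 5 samples.

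Serpina3m, a liver paralogue, stood at 3104, 1834 and 1200.5 in the controls and at 1184, 1074, 1223, 1087 and 1888 in the others. Control 3 lay among URI(+/D)Hep 1 to 4, and URI(+/D)Hep 5 lay above controls 2 and 3. The means were 2046 ± 969 (n = 3) and 1291 ± 339.6 (n = 5), with a log2 fold change of -0.59 (adjusted p = 0.333 by limma, SE 0.30). It was -0.23 without control 1 and 0.09 when control 3 alone stood for the controls.

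Control 1, control 2 and URI(+/D)Hep 5 held the 3 highest values of both Serpina3n and Serpina3m. Fgb, the beta chain of fibrinogen and an acute phase protein, was also highest there, at 43487, 22493 and 25825 against 15605 to 18676 in the other 5. Lcn2, an acute phase and neutrophil protein, stood at 4554, 2901 and 1389.6 in these 3 libraries and at 603 to 1129 in the others. Hp and Hpx, also acute phase proteins, were not raised in URI(+/D)Hep 5. Hp stood at 19572 there, against 25138 in control 3 and 20985 in URI(+/D)Hep 1, and Hpx at 7931, against 10738 in control 3. The part of such acute phase differences in the values of Serpina3n and Serpina3m was not tested.

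Serpina6, the corticosteroid carrier, varied most of the 8. Its values were 15.6, 354 and 658 in controls 1 to 3 and 362, 218, 369, 452 and 129 in URI(+/D)Hep 1 to 5. The highest library was 42.2 times the lowest, and 4.52% of tested genes spanned at least 10-fold or reached 0 in a library. The lowest value rests on 13 reads (95% counting interval 6.92 to 22.2 reads), and the next, in URI(+/D)Hep 5, on 130 reads (109 to 154). The group means were 343 ± 321 (n = 3) and 306 ± 130.2 (n = 5). On the log scale the fold change was 0.83 (adjusted p = 0.716 by limma, 95% interval -1.51 to 3.18, SE 1.04). It was -0.79 without control 1 and -0.17 with edgeR, so it has no stable sign. The 2 lowest libraries for Serpina6 were also the 2 lowest for the cell cycle genes, with Mki67, a marker of dividing cells, at 23.99 and 49.5 against 268 to 586 elsewhere. Whether the 2 are linked was not tested.

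Serpina10, the protein Z-dependent inhibitor, reached 1473, 3256 and 3559.6 in controls 1 to 3 and 1991, 1435, 2754, 2826 and 2692 in the others. Control 1 and URI(+/D)Hep 2 were low and nearly equal, and controls 2 and 3 were the 2 highest. The means were 2763 ± 1128 (n = 3) and 2339.5 ± 607 (n = 5), with a log2 fold change of -0.18 (adjusted p = 0.806 by limma, 95% interval -0.92 to 0.55, SE 0.32). Without control 1 it was -0.59 (limma adjusted p = 0.330), and without control 3 it was 0.05. Proz, its cofactor protein Z, stood at 149, 357 and 413 in the controls and at 424, 299, 285, 397 and 201 in the others. F10, which encodes the protease it blocks, had a log2 fold change of 0.17 (adjusted p = 0.623 by limma, SE 0.16).

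**Figure D4:**
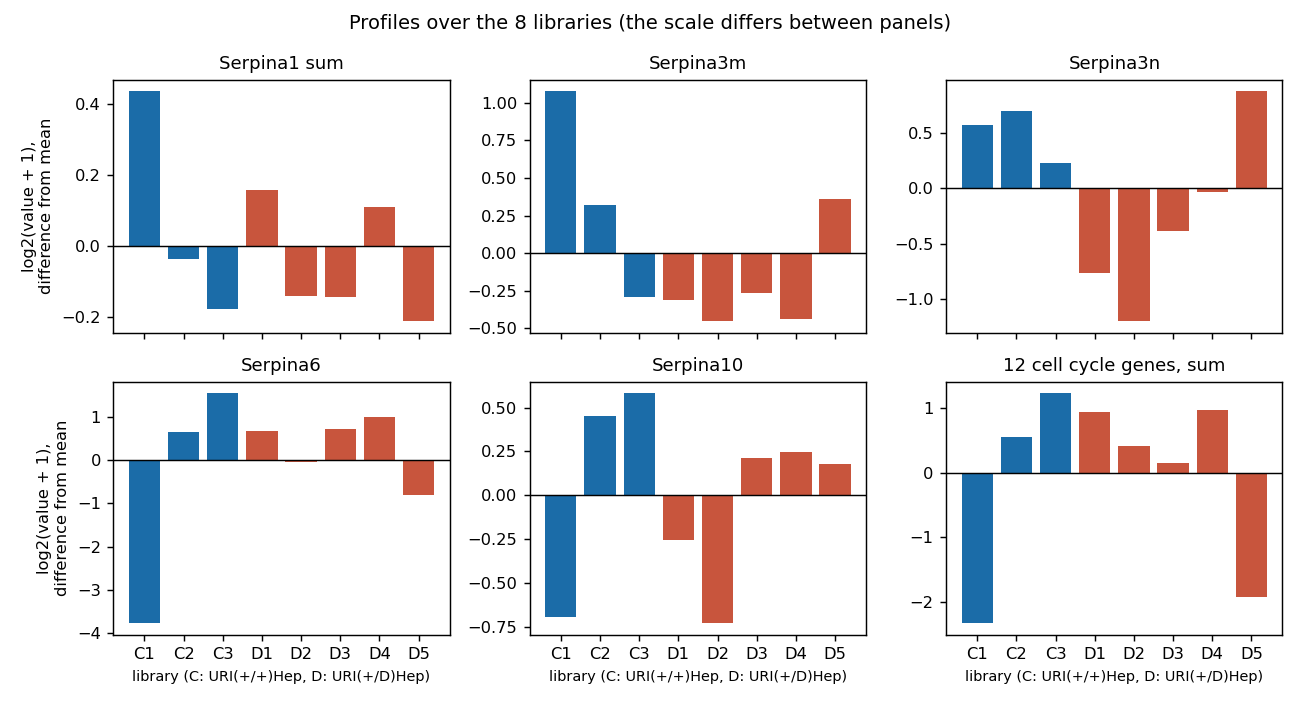
Log2(value + 1) in each library as the difference from the mean over 8 libraries, for the Serpina1 sum, 4 single serpins and the sum of 12 cell cycle genes. Blue bars are URI(+/+)Hep (C) and red bars URI(+/D)Hep (D), and the vertical scale differs between panels. C1 is the highest library for the Serpina1 sum and Serpina3m and the lowest for Serpina6 and the cell cycle sum.

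The profiles over the libraries thus differed between the serpins. For each, the most similar of 9607 other genes were those whose centred log2 values had the smallest root mean square difference over 8 libraries. For Serpina3m these were Fgg (0.11), Il4ra (0.12) and Fgb (0.13), that is, 2 fibrinogen chains and a cytokine receptor. For the Serpina1 sum they were 2610002M06Rik (0.04), 4833439L19Rik (0.05) and Pros1 (0.07), the last encoding protein S. For Serpina3n they were Mirt2, Steap4 and Tmem230 (0.30 to 0.32), for Serpina6 H3c4, Cyp3a44 and Gm15318 (0.26 to 0.34), and for Serpina10 Isoc2b, Pgpep1 and Gm43449 (0.18 each). H3c4 read 2.40, 101 and 104 in controls 1 to 3, and Cyp3a44 7.20, 302 and 395, both lowest in control 1 as Serpina6 was. Both were picked for likeness to the Serpina6 profile, so a low control 1 follows largely from that choice. The H3c4 value in control 1 lies below 3 reads, which are worth 3.60 there.

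The serpin cluster of mouse chromosome 12 holds further clade A genes. In the RefSeq order Serpina10 and Serpina6 come first, then the Serpina1 genes, then Serpina11, Serpina9, Serpina12 and Serpina5, and last the Serpina3 genes with Serpina3k, Serpina3m and Serpina3n at the end. The list of 16 other clade A names was not limited to this cluster, and Serpina7 is not in the chromosome 12 order. Of these 16, 11 had a row and 7 were tested. Limma called 0 of the 7, with 5 negative log2 fold changes and a median of -0.20. Serpina11, a secreted serpin next to Serpina1e, stood at 547, 536 and 503 in the controls and at 437, 320.4, 377, 359 and 307 in the others. All 5 lay below all 3 controls, with a log2 fold change of -0.56 (adjusted p = 0.115 by limma, SE 0.13), and DESeq2 on recovered reads called it lower (adjusted p = 0.0109). Ranges were apart below the controls for 7.3% of all genes tested, and DESeq2 called 2.94% of the genes it adjusted lower. Serpina11 was named for its small p in limma on the same libraries. Serpina7, thyroxine-binding globulin, had means of 123 ± 29.4 and 106 ± 13.7 (log2 fold change -0.20, limma adjusted p = 0.604; -0.04 without control 1 and -0.38 without control 2), and Serpina3h means of 19.3 ± 14.8 and 11.3 ± 2.30.

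Among 14 serpins of other clades limma called 0, with 9 negative log2 fold changes and a median of -0.22. Serpinc1, which encodes antithrombin, stood at 4723 to 5294 in the controls and 3715 to 4621 in the others (log2 fold change -0.23, SE 0.11, limma adjusted p = 0.299). Serpinh1, the collagen chaperone HSP47, had means of 138 ± 18.6 and 88.7 ± 7.56 (log2 fold change -0.63, limma adjusted p = 0.115) with ranges apart. Of all genes tested, 7.3% had ranges apart in that direction. Of 16 plasma protease inhibitors outside the serpins, 0 were called and 12 were negative, with a median of -0.25. Fetub stood at 1275 to 1458 against 849.6 to 1119 (log2 fold change -0.47, limma adjusted p = 0.118). Kng2, a kininogen, had means of 3662 ± 825 and 2430.0 ± 449 (log2 fold change -0.58, limma adjusted p = 0.169), and Tfpi, the tissue factor pathway inhibitor, means of 38.2 ± 9.75 and 56.3 ± 7.88.

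Regulators known for serpin genes were listed next. Of 29 tested transcription factors and signalling genes, limma called 0, 17 were negative and the median was -0.05. Hnf4a, a nuclear receptor of hepatocytes, had means of 1079 and 1029 (log2 fold change -0.05, SE 0.13). Cebpb, a C/EBP factor of the acute phase, stood at 650.0 ± 176 against 460.3 ± 51.01 (log2 fold change -0.47, limma adjusted p = 0.199; -0.26 without control 1). Nr3c1, the glucocorticoid receptor, stood at 554 ± 129 against 776 ± 109 (log2 fold change 0.50, limma adjusted p = 0.190; 0.32 without control 1). Cux2, a female-biased factor of mouse liver, stood at 166 ± 54.8 against 379 ± 105 with ranges apart (log2 fold change 1.20, limma adjusted p = 0.115). Ranges apart in that direction occurred in 6.13% of all genes tested.

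The targets and partners of these serpins gave 0 calls among 15 tested genes, with a median of -0.11, and Lrp1, the receptor that clears serpin complexes, had a log2 fold change of -0.20 (adjusted p = 0.398 by limma, SE 0.12). Genes that fold and export secreted proteins gave 0 calls among 25 tested, 18 of them negative with a median of -0.19, and 7 had ranges apart below the controls and 2 above (7.3% and 6.13% of all genes). Surf4, a cargo receptor that exports secreted proteins from the endoplasmic reticulum, stood at 1602 to 1940 against 1191 to 1412. Its log2 fold change was -0.46 (adjusted p = 0.115 by limma, SE 0.10). Sec61a1, of the channel through which secreted proteins enter the endoplasmic reticulum, had one of -0.64 (adjusted p = 0.114 by limma, SE 0.13), and Ssr4, of the translocon-associated complex, one of -0.50 (adjusted p = 0.115 by limma, SE 0.11).

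Hepatocyte markers, whose cells make these serpins, gave 0 calls among 13 tested genes, 9 of them negative, with a median of -0.31. Their summed level was 101730 to 145194 in the controls and 89869 to 99748 in the others. Control 1, the highest library for the Serpina1 sum, was also the highest for this sum, to which Fgb and Hp gave most in that library. Without Fgb and Hp the sum was 60385 to 69898 in the controls and 54053 to 60087 in the others. Control 1 was the lowest library for Cps1 (1077, against 1802 to 3682) and the lowest control for Alb (6753, against 9488 and 10748). Cps1, the first enzyme of the urea cycle, had a log2 fold change of 1.03 (adjusted p = 0.108 by limma, SE 0.20), and Hp, haptoglobin, one of -0.57 (adjusted p = 0.115 by limma, SE 0.13). Neutrophil markers, whose cells release the elastase that alpha-1 antitrypsin blocks, had a summed level of 2043 to 6004 against 1237 to 2382, with 0 of 11 called, 9 negative and a median of -0.85. Lcn2 gave 4554 of the 6004 in control 1, and without it the sums were 1449.9, 1833 and 1175 in the controls and 634 to 1377 in the others. Elane, the elastase gene itself, was not analysed here, and Ly6g, which defines neutrophils, was between 0 and 4.80 in the 8 libraries. The part of either cell type in the serpin values was not tested.

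Markers of other liver cells gave 0 calls among 13 tested genes, 11 of them positive with a median of 0.34 and a summed level of 4353 to 6525 in the controls and 6221 to 7791 in the others. Vsig4, a Kupffer cell receptor, had a log2 fold change of 0.57 (limma adjusted p = 0.180), and of 0.35 without control 1. Among 12 cell cycle genes 0 were called and 10 were positive, with a median of 0.23. Among 16 sex-linked or sex-biased genes 0 were called and 10 were negative, with a median of -1.49. Mup7, a male-biased urinary protein, had a log2 fold change of -4.66 (adjusted p = 0.109 by limma, SE 0.91), and Sult3a1, a female-biased sulfotransferase, one of 3.04 (adjusted p = 0.108 by limma, SE 0.53). In a fit with the Y-linked share added, Serpina3n had a log2 fold change of -0.56, Serpina3m one of -0.33 and Serpina6 one of -0.03. The part of sex-biased expression in the serpin values was not tested otherwise.

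DESeq2 on recovered reads called more of the genes named from these lists than limma, which called none of them. Besides Serpina11, it called Serpinh1, Fetub, Sec61a1, Surf4, Ssr4, Mmp9, Csf3r, Lcn2, Hp, Asgr1, Mup7 and Cyp4a12a lower, and Cux2, Cps1 and Sult3a1 higher. Of these, Serpinh1, Fetub and Asgr1 were not called by DESeq2 without URI(+/D)Hep 5. Among all genes it adjusted, DESeq2 called 2.94% lower and 2.03% higher. The genes named from the lists had been picked for the smallest p in limma on the same libraries. Many calls among them follow from that choice and give no independent support.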

How the data were processed

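QuantSeq 3′ libraries were made from total RNA of 8 liver samples, with poly(A) priming and a molecular tag (per the labels' protocols). For the authors' processing, bcl2fastq, featureCounts, DESeq2 and GRCm39 are named in the submitters' processing notes. The sources used here do not give the aligner, the annotation or the use of the tags. The deposited values are a signal, the counts of 19055 genes divided by a size factor. Dividing by the value of 1 read returned whole reads for 100% of values in each library (tolerance 1e-06). For URI(+/D)Hep 5, where 1 read is worth 0.989, this scale is less certain because that value is close to 1. In control 2, at 0.985, it is nearly as close.

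The 13704 genes that reached 10 in 3 or more libraries were tested with limma 3.58.1 (R 4.3.3) on log2(value + 1), with a mean-variance trend and Benjamini-Hochberg adjustment, and called at an adjusted p under 0.05. Fold changes on this scale understate changes of low genes. Sums were tested with a two-sided exact permutation test. The fit was tested on simulated counts drawn with the same spread setting for all genes. That does not show how it behaves with libraries of unlike sex makeup and cell cycle RNA, as here. Alternatives were other pseudocounts, filters and scalings, a replicate block, a Y-linked covariate, left-out libraries, and edgeR 4.0.16 and DESeq2 1.42.0 on recovered reads (2164 genes without an adjusted p). Coding sequences were aligned with MAFFT 7.526. Sequences come from GRCm38, not the build of the counting.

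The serpins and gene lists were chosen with earlier results of these data known. From each list the text names called genes or up to 3 with the smallest unadjusted p, besides Uri1 and the 3 genes most like each profile. Proz, F10, Hnf4a, Dcn and Ly6g were named for their role after their values were seen, as were Fgb, Lcn2 and Mki67 where set beside a serpin. Hpx, Alb and Xist were also named outside the rule of smallest p. Because Serpina3k was not analysed here, the profile planned for Serpina3k and Serpina3m is that of Serpina3m. Values from 3 reads correspond to 2.65 to 3.60 normalized reads, and intervals on reads cover counting error only.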

Additional observations from a re-analysis of the deposited data

Results flagged for a closer look

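Serpina3m in URI(+/D)Hep 5 stood at 1888 normalized reads, apart from the other 4 libraries of its group at 1074 to 1223. The gap to the nearest library was 0.817 of the group's range, above Dixon's critical value of 0.71 for 5 samples. It was the only such value among the 8 genes checked in the livers labelled URI(+/D)Hep. Chance marks about 1 in 20 groups, so 1 mark among 8 genes is not unusual.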

How the results depend on the processing

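Calls by limma were few, 0 higher and 2 lower over all genes, and 0 among the serpins. The genes called lower became 0 under quantile scaling, limma without the trend, the Y-linked covariate, with control 1 and URI(+/D)Hep 5 both left out, when control 3 was the 1 control (a fit whose spread comes from the other group alone, so that few calls could be made), and in edgeR on 7 libraries. Those called higher became 1 with a mean of at least 50 and 1 without both of those libraries. Leaving out 1 library gave 0 to 10 genes called higher and 0 to 19 called lower, the highest counts of both without control 3. DESeq2 called 234 higher and 339 lower on 8 libraries, and 123 higher and 255 lower on 7. In the 7-library fits URI(+/D)Hep 5 was left out, a choice made after seeing the data. DESeq2 then called 1 serpin lower, Serpina3n, for which that library runs against the difference.

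The log2 ratio of the Serpina1 sum was 0.10 with control 1 and URI(+/D)Hep 5 left out, and ran from -0.25 to 0.0604 with 1 library left out. The sign of several log2 fold changes turned, large ones included. Quantile scaling gave 0.10 for Serpina1a and 0.063 for Serpina1c. TMM gave -0.0034 for Serpina1e and -0.0054 for Uri1. The Y-linked covariate gave -0.035 for Serpina1e, -0.028 for Serpina6, 0.099 for Serpina3h, -0.045 for Ccnb2 and -0.089 for Mki67. Without both control 1 and URI(+/D)Hep 5 the values were 0.30 for Serpina1a, 0.071 for Serpina1c, -0.51 for Serpina6 and 0.19 for Serpina3h. With control 3 as the 1 control they were 0.20 for Serpina1a, 0.12 for Serpina1c, 0.094 for Serpina3m, -1.33 for Serpina6, 0.29 for Lcn2, -0.84 for Top2a, -0.80 for Ccnb2 and -1.05 for Mki67. On recovered reads Serpina6 was at -0.17 in edgeR and -0.16 in DESeq2, and Uri1 at -0.0035 in edgeR, and at -0.0195 in edgeR and -0.013 in DESeq2 on 7 libraries. Leaving out 1 library gave ranges of -0.16 to 0.25 for Serpina1a, -0.15 to 0.081 for Serpina1c, -0.056 to 0.11 for Serpina1e, -0.79 to 1.87 for Serpina6, -0.59 to 0.0498 for Serpina10, -1.09 to 0.15 for Serpina3h, -0.33 to 1.62 for Top2a, -0.39 to 1.34 for Ccnb2, -0.47 to 1.64 for Mki67 and -0.13 to 0.16 for Uri1. Serpina1b and Serpina3n stayed negative in all 23 alternatives, but with control 3 as the 1 control they were at -0.02 and -0.41. The cause of these turns was not tested.

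With the replicate number as a block, limma called 0 genes higher and 0 lower, and Serpina1a was at 0.039 and Serpina3n at -1.28. No pairing by number was seen. Libraries of the same number correlated at -0.40, -0.04 and -0.27, and 0 of 3 controls correlated best with their own number. Such correlations, taken after the group means were removed, cannot exclude a shared batch, litter or day. Depth limits Serpina6 in control 1, read 13 times.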

Other observations

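Serpina3c, a clade A gene of the same cluster that did not pass the filter on low values, stood at 204 normalized reads in control 3 and at 3.60, 0.98, 0, 1.85, 2.90, 1.87 and 5.93 in controls 1 and 2 and URI(+/D)Hep 1 to 5. Like Serpina12, Epcam, Krt19 and Spink1 below, it was singled out after its values were seen. Serpinb1a, an intracellular inhibitor of neutrophil proteases, stood at 164 in URI(+/D)Hep 5 and at 10.2 to 12.2 in URI(+/D)Hep 1 to 4, against 4.29 to 7.88 in the controls (log2 fold change 1.63, limma adjusted p = 0.359). Serpinb1a passed the filter on low values only through the URI(+/D)Hep livers, where it was higher. Markers of bile duct and other epithelial cells were high in the same library: Epcam stood at 525 there (7.96 to 29.96 elsewhere), Krt19 at 65.3 (0 to 5.91) and Spink1 at 663 (6.77 to 64.0). Their part in the Serpinb1a value was not tested. Without URI(+/D)Hep 5 the log2 fold change of Serpinb1a was 0.87. Serpina12, the adipokine vaspin, stood at 217 in control 1, 53.2 and 52.6 in controls 2 and 3, and 41.6 to 115 in the livers labelled URI(+/D)Hep.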
